A study of Caenorhabditis elegans with 4 samples.

Results

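The GEI-11 peaks of chromosome II are described here. They are all rows of the authors' combined peak list that lie on that chromosome, 382 of 2811 peaks, taken by chromosome name alone. GEI-11, also called SNPC-4, is the worm counterpart of the large DNA-binding subunit of SNAPc, a complex that activates small nuclear RNA genes. The data are chromatin immunoprecipitation with sequencing (ChIP-seq), in which the DNA crosslinked to a protein is recovered with an antibody and sequenced, here to map where the tagged protein sits. The material comprised 2 ChIP samples and 2 input samples of Caenorhabditis elegans, all of strain OP179 and all young adult hermaphrodites grown at 20 °C. It has the mutation unc-119(ed3) on chromosome III and, put in by bombardment, the transgene wgIs179. This carries unc-119(+) as well as gei-11 fused to the tags TY1, EGFP and 3xFLAG. ChIP and input samples share all of this, and the genotype lists no mutation of the native gei-11 gene. The ChIP samples were collected with antibodies to GFP, which see the tagged copy and not the native protein. The input samples are chromatin of the same lysates set aside before that step. They have no peak list here, so no peaks of input are set beside those of ChIP. The sources used here do not say how input entered the q-values of the ChIP peaks.

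SNAPc binds a short promoter element upstream of small nuclear RNA genes and recruits RNA polymerase II or, at U6 genes, RNA polymerase III. In C. elegans this protein is also known for coating the piRNA gene clusters of chromosome IV, from which germline small RNAs are made. Chromosome II carries no such cluster. The chromosomes of C. elegans have no single centromere, and in each autosome a gene-dense central region is flanked by arms that are richer in repeats.

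Each peak has a position on WormBase WS220 and a q-value, and strength is given throughout as −log10 q, so that a larger number means a smaller q. It is neither a height nor a fold enrichment, and it grows with read depth as well as with enrichment. Read depth is unknown for all 3 lists, because they hold no read counts. A combined peak was called found in a replicate list when it overlapped a peak of that list by 1 bp or more. Intervals are exact Clopper-Pearson 95% intervals of counts of peaks. They cover counting error only, and neighbouring peaks are not independent, so intervals and p-values are narrower and smaller than clustered peaks would warrant. The labels do not say whether the numbered replicates came from separate worm cultures, so the difference between them may be technical.

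The 382 peaks of chromosome II were mostly weak and narrow, with a small set of very strong sites. The median strength was 3.06, with 50% of the peaks between 2.44 and 4.85, against a median of 3.14 over the 1339 peaks of chromosomes I, III, V and X. The lowest member had 2.02 and the highest 211.9, the highest value of the combined list. Only 91 members reached a strength of 5, 42 reached 10, 15 reached 50 and 7 reached 100. Widths ran from 30 bp to 1598 bp with a median of 291 bp, against 318 bp on chromosomes I, III, V and X. Together the members covered 135.6 kb of the 15.3 Mb between position 1 and the last peak of the chromosome in any list, at 25.02 peaks per Mb. The density was 19.9 per Mb over chromosomes I, III, V and X, and those chromosomes differed among themselves, from 9.36 per Mb on I to 25.5 per Mb on III. No test was made of the medians and densities.

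The strongest site of the chromosome lay at 5543250 to 5544488, a peak of 1239 bp. Its combined strength was 212, with 51.8 in the list of replicate 1 and 182 in that of replicate 2. It was the first of all chromosome II peaks in replicate 1 and the second in replicate 2. The site at 13834223 to 13835204, 982 bp wide, had a combined strength of 206, with 36.7 in replicate 1 and 187 in replicate 2. These sites changed places in replicate 2, where the 13.8 Mb site led. In replicate 1 the 13.8 Mb site was only 4th on the chromosome. Thus the order of the leading sites depended on the replicate, although both of these stood far above the chromosome median in either list.

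Close to the right end of the chromosome lay a further pair of sites with nearly equal combined strength but unequal replicate 1 values. The peak at 14804031 to 14804892 had a combined strength of 149, with 22.4 in replicate 1 and 132 in replicate 2. The peak at 15025461 to 15026198 had 149, 46.2 and 136 in the same lists. In replicate 1 the site near 15 Mb therefore ranked second on the chromosome and the site at 14.8 Mb sixth.

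Of the 3 other sites over 100, 1 lay in the middle part of the chromosome and the others towards the right. The peak at 5844470 to 5845212 had a combined strength of 136, with 26.3 in replicate 1 and 120.0 in replicate 2. The peak at 12944393 to 12945385 had 135, with 40.4 in replicate 1 and 116 in replicate 2. The peak at 14017724 to 14018682 had 107, with 20.4 in replicate 1 and 95.2 in replicate 2. All 7 sites over 100 were wider than 500 bp, from 738 bp near 15 Mb to 1239 bp at 5.54 Mb.

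Ranks 8 to 15 on the chromosome had combined strengths of 50.2 to 87.0. The peaks at 7199927 to 7200534 and 11223828 to 11224389 had combined values of 82.0 and 79.5, with 18.0 and 17.7 in replicate 1 and 66.9 and 68.3 in replicate 2. Those at 11167026 to 11167505 and 5599452 to 5599959 had 68.6 and 65.3, with 54.2 and 53.6 in replicate 2. They could hardly be told apart in replicate 1, where both had 13.7 to 13.8. The peaks at 5057320 to 5057730, 5701390 to 5701998 and 12778295 to 12778686 closed the group with 64.2, 53.9 and 50.2. The last of them was relatively stronger in replicate 1, where it ranked 11th on the chromosome with 16.1, than in replicate 2, where it ranked 17th with 34.4. The largest departure within the group was at rank 8, the peak at 13520974 to 13522571. Its combined strength of 87.0 stood against 35.1 in replicate 2 and 10.7 in replicate 1, and it was 16th on the chromosome in both replicate lists. At 1598 bp this was the widest member, and both replicate lists held it as 2 separate peaks.

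**Figure D1:**
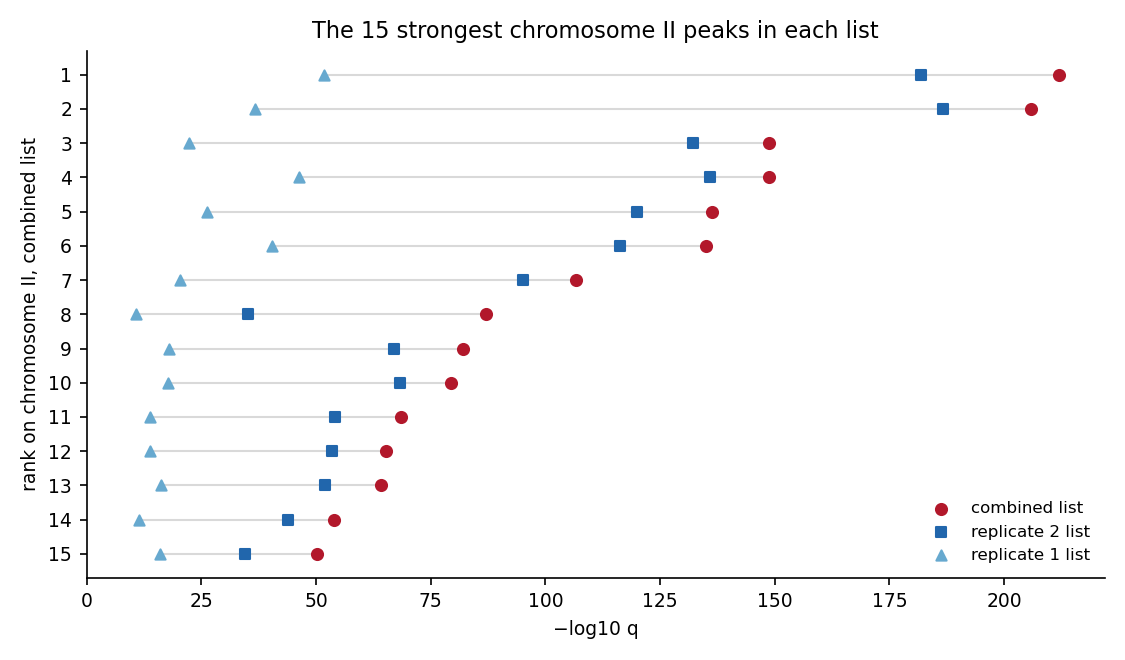
The 15 strongest GEI-11 peaks of chromosome II, ranked by the combined list from top to bottom, with −log10 q on the horizontal axis for the combined list (circles), replicate 2 (squares) and replicate 1 (triangles). Replicate 2 lies below the combined value in every row, farthest at rank 8, where it is 35.1 and the combined value 87.0, and replicate 1 lies between 10.7 and 51.8.

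The 15 strongest sites were wide and often had company. Their median width was 738 bp and the narrowest was 392 bp, against a median of 284 bp for the other 367 members. Another chromosome II peak lay within 10 kb, midpoint to midpoint, of 11 of the 15, or 73.3%, against 194 of the other 367, or 52.9%. Among the 42 members with a strength of 10 or more, 13 stood within 10 kb of another such member. How many the spacing of peaks alone would give was not computed. A member of any strength lay within 10 kb of 31 of the 42, or 73.8%, against 174 of the other 340, or 51.2%. Of the 42, 29 lay right of the midpoint of the chromosome, on the side that held 62.6% of all members. Peaks of any strength were closer together there, with a median spacing of 16.0 kb against 28.3 kb on the left. The leading site at 13.8 Mb had a neighbour of strength 33.7 at 13829253 to 13830039, 5.07 kb away. The 14.8 Mb site had a neighbour of strength 47.1 at 14801098 to 14801559, 3.13 kb away, which in turn lay 6.30 kb from a peak of strength 15.1 at 14794833 to 14795231. The 5.06 Mb site had a peak of strength 13.2 at 2.14 kb, and the site of strength 107 one of strength 14.5 at 7.08 kb. The strongest site of all, at 5.54 Mb, had no other member within 10 kb and 3 within 50 kb. These counts were not tested.

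Peaks became more frequent from the left end of chromosome II to the right. In 3 parts of equal length, the left part held 65 peaks, 17.0% (95% CI 13.4 to 21.2), the middle 132, 34.6% (29.8 to 39.6), and the right 185, 48.4% (43.3 to 53.6). Divided at its midpoint, the chromosome held 239 peaks on the right side and 143 on the left, a ratio of 1.67 (95% CI 1.35 to 2.07). Equal shares were rejected by a two-sided exact binomial test (p = 1e-06, adjusted p = 5.2e-06 over 5 tests, Benjamini-Hochberg). This test counts neighbouring peaks as independent. With peaks within 10 kb merged, the ratio was 1.42 and the call much weaker (exact binomial p = 0.0069, adjusted p = 0.034). The list of replicate 2 alone gave 179 on the right side and 98 on the left. The list of replicate 1 alone gave 27 and 12, a ratio of 2.25 that did not pass after adjustment (exact binomial p = 0.024, adjusted p = 0.12). The ratio of right to left was 1.10 on chromosome I, 1.37 on III, 1.07 on V and 1.15 on the X, and 3.62 on IV, the chromosome of the piRNA clusters. Whether chromosome II differs from the others in this ratio was not tested.

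Median strength differed little between the 3 parts, while strong sites were fewest on the left, where peaks were fewest too. The median strength was 2.96 in the left part, 3.03 in the middle and 3.24 in the right, and median width 303, 295 and 278 bp. A strength of 10 or more was reached by 4 of the 65 peaks of the left part, 13 of the 132 in the middle and 25 of the 185 in the right. Over the whole chromosome 42 of the 382 members reached it. Of the 20 strongest members 1 lay in the left part, 6 in the middle and 13 in the right. Those parts held 17.0%, 34.6% and 48.4% of all members, and these counts of strong sites were not tested. The 1 in the left part, at 5057320 to 5057730 with a strength of 64.2, sat just inside the boundary at 5.09 Mb. The next strongest of the left part, at 2986832 to 2988210, had 15.4, with 3.42 in replicate 1 and 7.52 in replicate 2. Up to 5 Mb, the highest value of the chromosome was thus 15.4.

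**Figure D2:**
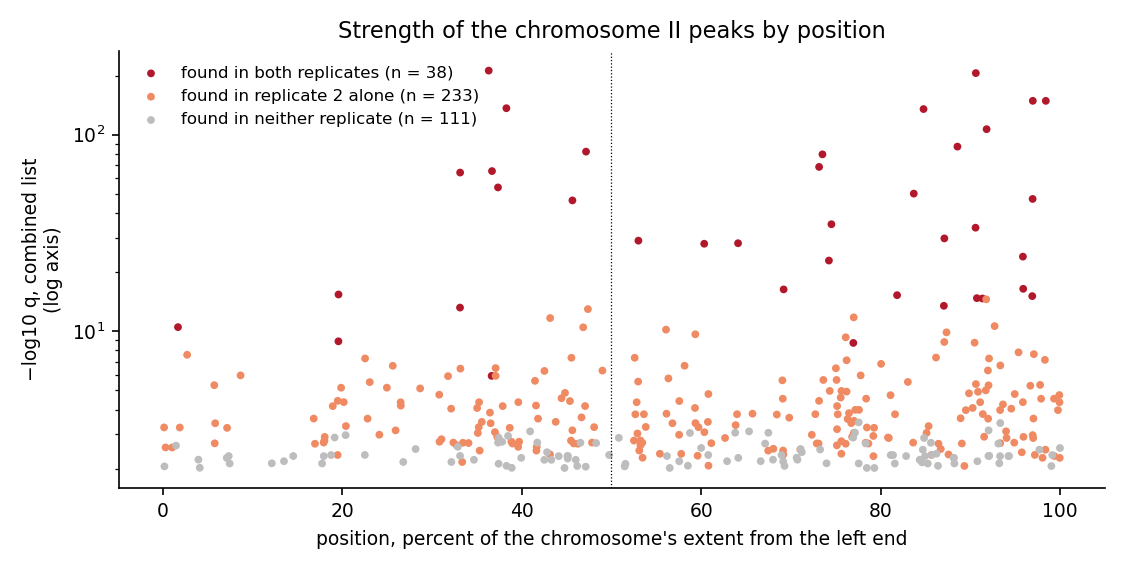
Each of the 382 chromosome II peaks by its position, as a percent of the chromosome's extent from the left end, and its −log10 q in the combined list on a log axis. Red points were found in both replicate lists (38), orange in replicate 2 alone (233) and grey in neither (111), and the dotted line marks the middle of the chromosome. No point above 15.4 lies in the left 30%, and sites over 100 lie near 36 to 38% and from about 85% on.

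In bins of 0.5 Mb the 30 full bins held 12.3 ± 6.85 peaks (SD over bins), with a range from 1 to 28. The 10 bins from 0 to 5 Mb had a median of 5 peaks and the 20 bins from 5 to 15 Mb a median of 14.5, a division chosen after the counts had been seen. The lowest counts were 1 peak between 1.5 and 2 Mb and 2 between 2 and 2.5 Mb. The rise was not smooth. The bin from 2.5 to 3 Mb held 14 peaks on the otherwise sparse left side, and the bin from 7.5 to 8 Mb held 4 in the middle of the chromosome. None of the 7 peaks in the bins from 1.5 to 2.5 Mb and from 7.5 to 8 Mb was found in either replicate.

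The fullest bins differed in what filled them. Between 11.5 and 12 Mb lay 28 peaks, of which 22 were in replicate 2 and 1 in replicate 1, and only 1 of the 28 had a strength of 10 or more. That one, at 11756434 to 11757059, had a combined strength of 11.8 and one of 10.2 in replicate 2 and was absent from replicate 1. Between 14 and 14.5 Mb lay 26 peaks, with 9 in neither replicate and the 107 site as the strongest. Between 5.5 and 6 Mb lay 22 peaks, with 5 in both replicates and the 212 site as the strongest. The bins from 13.5 to 14 Mb and from 14.5 to 15 Mb held fewer peaks, 18 and 19, but 5 members of strength 10 or more each, and 17 of 18 and 18 of 19 were found in replicate 2.

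**Figure D3:**
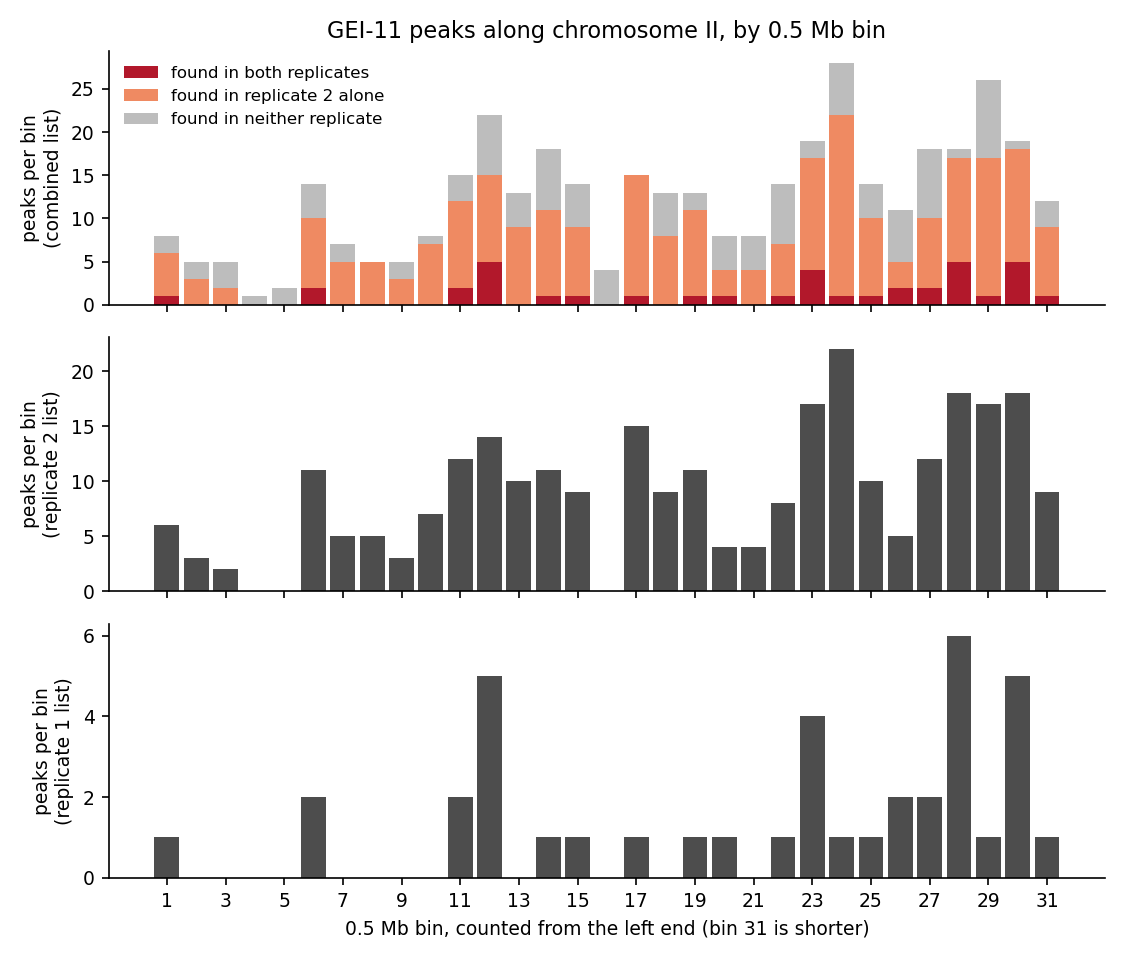
Number of GEI-11 peaks per 0.5 Mb bin along chromosome II, with bins counted from the left end, in the combined list (top, coloured by whether the peak was found in both replicates, in replicate 2 alone or in neither), the replicate 2 list (middle) and the replicate 1 list (bottom). Bins 24, 29 and 12 are the fullest of the combined list with 28, 26 and 22 peaks, and bins 4, 5 and 16 hold no replicate 2 peak.

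Spacing followed the same gradient. The median distance between neighbouring midpoints was 20.5 kb over the chromosome, 16.0 kb on the right side and 28.3 kb on the left side. On chromosomes I, III, V and X it was 25.5 kb, from 19.4 kb on III to 64.1 kb on I. Of the 381 distances, 12 were within 1 kb, 75 within 5 kb (19.7%, against 19.0% on chromosomes I, III, V and X) and 127 within 10 kb. Members never overlapped each other. The longest stretch with no peak ran from 1320778 to 1851827, or 531 kb, and the next from 2217257 to 2564958, or 348 kb. Among the 9 empty stretches over 200 kb, 7 began and ended left of the midpoint. The exceptions, from 8216697 to 8457467 and from 9333318 to 9566082, lay right of the middle.

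Short runs of 3 or more peaks with neighbouring midpoints within 5 kb numbered 13, with 47 peaks in all, and 11 of the 13 lay on the right side. That side held 62.6% of all members, at closer spacing, and the share of runs on it was not tested. Most consisted of weak peaks: in 4 runs the strongest member reached 10, and in 3 a member was found in replicate 1. The exceptions were the run from 14801098 to 14804892, with 3 peaks around the 149 site, the run from 5055187 to 5062105, with 4 peaks around the 64.2 site, and the run from 10548752 to 10563649, with 5 peaks and a highest strength of 16.3. In the fourth, from 11756434 to 11762258, the highest was 11.8. The other runs of 5 peaks, from 14040092 to 14052011 and from 14247276 to 14251889, had highest strengths of 6.32 and 6.70 and 3 of 5 peaks each in replicate 2. The run from 6883782 to 6891574 had 3 peaks of 2.25 to 2.32, none of them in a replicate list. The right-most run, from 15255878 to 15266709, had 4 peaks with a highest strength of 4.74 and ended with the last peak of the chromosome. Counted by 100 kb stretch, the most crowded held 11 peaks, from 13976120 to 14063335 around the 107 site. A stretch from 11452941 to 11547683 held 10 peaks with a highest strength of 6.48, and all 10 were in replicate 2 and none in replicate 1.

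**Figure D4:**
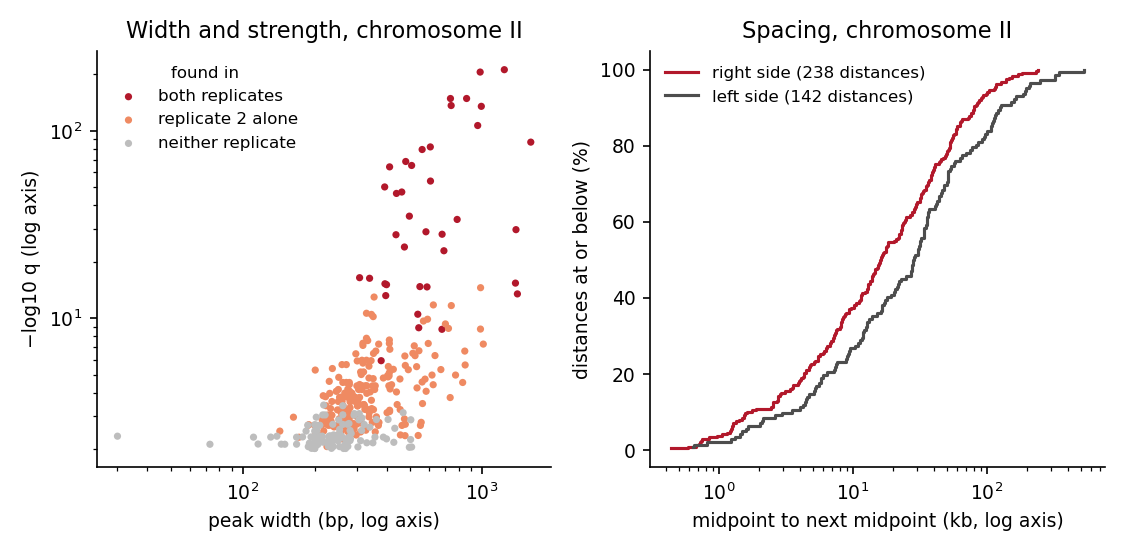
Left, width in bp against −log10 q for the 382 chromosome II peaks on log axes, coloured by the replicate lists in which each was found. Right, the cumulative share of distances from one midpoint to the next in kb on a log axis, for the right side (median 16.0 kb) and the left side (median 28.3 kb), where the curve of the right side runs above that of the left.

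Wider peaks tended to be stronger. Over the 382 members width and strength had a Spearman rho of 0.68 and a Pearson r of 0.54. Both come from one call on the same reads, so the values describe the list. Median width was 247 bp at strengths of 2 to 3, 301 bp at 3 to 5, 410 bp at 5 to 10, 497 bp at 10 to 50 and 738 bp at 50 or more. After the 1598 bp peak the widest were at 13289874 to 13291278, 1405 bp with a strength of 13.5, and at 13298372 to 13299757, 1386 bp with 29.7. These 2 lay 8.49 kb apart. The narrowest members, 30 bp at 15136278 to 15136307, 73 bp at 13016474 to 13016546 and 111 bp at 12648511 to 12648621, had strengths of 2.12 to 2.35 and were in neither replicate list.

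Of the 382 members 271, or 70.9% (95% CI 66.1 to 75.4), were found in replicate 2, against 72.6% of all combined peaks, and 38, or 9.95% (7.14 to 13.4), in replicate 1, against 10.5% of all. The combined list was made from the same ChIP samples, so these shares do not measure reproducibility. All 38 members found in replicate 1 were also in replicate 2. A further 233 were in replicate 2 alone, and 111, or 29.1% (24.6 to 33.9), were in neither list, against 27.2% of all combined peaks. On chromosomes I, III, V and X together 951 of 1339 peaks, 71.0%, were in the replicate 2 list (by Fisher's exact test p = 1, adjusted p = 1) and 110, 8.22% (6.80 to 9.82), in that of replicate 1 (by Fisher's exact test p = 0.30, adjusted p = 0.44). Within chromosome II, 72.8% (66.7 to 78.3) of the right side and 67.8% (59.5 to 75.4) of the left side were in the replicate 2 list (by Fisher's exact test p = 0.35, adjusted p = 0.44). None of these differences passed the two-sided test, and the intervals leave room for differences of several percentage points.

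Being found in a replicate list went with strength. Members in both lists had a median strength of 31.7 and a median width of 572.5 bp. Those in replicate 2 alone had 3.595 and 302 bp, and those in neither had 2.32 and 234 bp. Replicate 2 held 81 of the 183 members between 2 and 3, or 44.3% (95% CI 36.9 to 51.8), 99 of the 108 between 3 and 5, or 91.7%, and every one of the 91 members of 5 or more. Replicate 1 held none of the 291 members under 5, 3 of the 49 between 5 and 10, 20 of the 27 between 10 and 50, or 74.1% (53.7 to 88.9), and all 15 of 50 or more. The shares on chromosomes I, III, V and X were close, at 41.6%, 93.0% and 100% in replicate 2 up to 10 and 73.4% (62.3 to 82.7) in replicate 1 between 10 and 50. The strongest member with no replicate 2 peak was at 11841711 to 11841928, with 3.44. The strongest with no replicate 1 peak was at 14010633 to 14011618, with a combined strength of 14.5. The weakest that replicate 1 held was at 5593540 to 5593918, with 5.93.

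**Figure D5:**
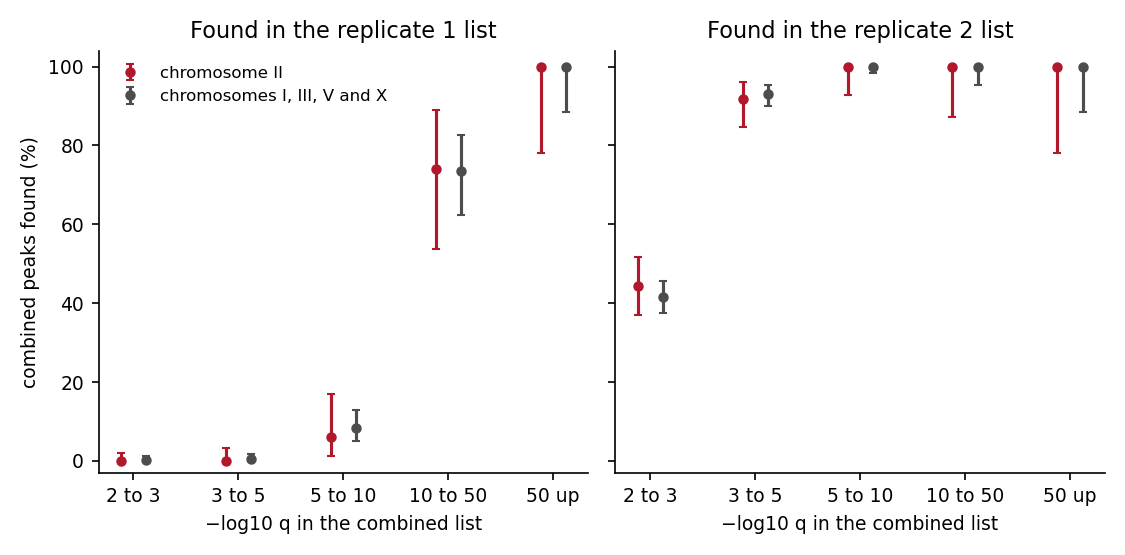
Share of combined peaks found in the replicate 1 list (left) and the replicate 2 list (right) by class of −log10 q, for chromosome II (red) and for chromosomes I, III, V and X (grey). Bars are exact 95% intervals of the counts. Replicate 2 holds 44.3% of the chromosome II peaks between 2 and 3 and all of those from 5 up, and replicate 1 holds none under 5 and 74.1% between 10 and 50.

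Where both replicates had the site, they ordered the members alike at different levels. Over the 38 members in both lists strength was higher in replicate 2 in all 38, with a median of 6.74 and a range from 2.26 to 51.8 in replicate 1, and a median of 24.3 and a range from 3.14 to 187 in replicate 2. The values had a Spearman rho of 0.95 and a Pearson r of 0.94, given as a description, since peaks of a list share their library and its depth. The combined strength was above that of replicate 2 in all 38, and in 252 of the 271 members found there. Median widths of the 38 were 379 bp in replicate 1, 565.5 bp in replicate 2 and 572.5 bp in the combined list. Their midpoints lay a median of 35.8 bp from the combined midpoint in replicate 1 and 6.5 bp in replicate 2. In the reverse direction, all 39 replicate 1 peaks of the chromosome overlapped a combined peak, 2 of them the same one, and 273 of the 277 replicate 2 peaks did. The 4 that did not, at 6453403 to 6453629, 8525335 to 8525566, 10862195 to 10862496 and 13304611 to 13304804, had strengths of 2.06 to 2.27 in replicate 2.

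Chromosome II was well represented among the 15 strongest combined peaks, and less so further down the list. With 382 of the 2811 peaks it held 6 of those 15, while chromosomes I, III, V and X together held 6 and chromosome IV 3. Among the 20 strongest it still held 6, while chromosomes I, III, V and X together held 9 and chromosome IV 5. These counts were not tested. Chromosome II held 19 of the 100 strongest, or 4.97% of its members (95% CI 3.02 to 7.66), against 3.56% of all combined peaks. On chromosomes I, III, V and X 37 of 1339 were among those 100, or 2.76% (1.95 to 3.79), and the difference did not pass after adjustment (two-sided Fisher's exact p = 0.048, adjusted p = 0.12). The share was 8.51% (4.48 to 14.4) on chromosome I, 3.42% on III, 2.56% on V and 0.478% (0.058 to 1.72) on the X. It was 4.04% (2.95 to 5.38) on IV. Against all other chromosomes, IV included, the difference was 1.64 percentage points (Fisher's exact adjusted p = 0.34). The comparison depended on its partners. With chromosome I left out it passed (Fisher's exact adjusted p = 0.016), and with the X left out the share elsewhere came within 1.17 percentage points of that of chromosome II (Fisher's exact adjusted p = 0.45), both settings chosen after seeing the data. Taken to the 300 strongest, chromosome II held 40. As 40 of its 382 members, this was no higher a share than 300 of all 2811 combined peaks, chromosome IV included. Against chromosomes I, III, V and X the share was 2.70 percentage points higher, which did not pass (Fisher's exact adjusted p = 0.24).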

How the data were processed

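Peak lists of the 2 ChIP samples and 1 combined list were used. Per the file headers the build is WormBase WS220, and the source column names the caller PeakSeq. The score the authors deposited is a q-value per peak, at most 0.00993 in the combined list. The sources used here do not give the aligner, filters, PeakSeq version, q threshold or read depth, nor how the replicates were combined. Column values were turned into −log10 q and lists were intersected by position. The gene table used here is of another assembly, WBcel235, and no WS220 sequence was used, so peaks carry no gene names or sequences.

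The members and lists were chosen with earlier results of these data known. Named peaks were the 15 strongest, the 3 strongest of each part, the 3 widest and 3 narrowest, runs, fullest bins and replicate peaks with no combined peak; others were named after their values were seen. The sides right and left of the midpoint were compared by a two-sided exact binomial test, and shares by two-sided Fisher's exact tests, 5 tests in all with Benjamini-Hochberg adjustment. Chromosome IV, which holds the piRNA clusters and 1090 of the peaks, was left out of the main comparison. The functions were tested on simulated data. Computation used scipy 1.17.1 with numpy 2.4.6 and pandas 2.3.3 in Python 3.11.15, and plots matplotlib 3.10.9.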

Additional observations from a re-analysis of the deposited data

How the results depend on the processing

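No paired analysis was possible because input, which shares the replicate numbers of the ChIP samples, has no list used here. Alternatives merged peaks within 1 kb (358 members left) or 10 kb (254), kept the stronger 50% of the list (172 members), asked for 50% overlap, changed the chromosomes compared, took q below 0.001 (199 members), or used each replicate list alone. The ratio of right to left stayed above 1 under every alternative run, at 1.61 and 1.42 with merging, 1.97 with the stronger 50% and 1.88 with q below 0.001. It was 1.83 to 2.25 over the single lists, where it lost its call in replicate 1, which has 39 peaks on the chromosome. The difference in replicate 2 shares turned from -0.081 to 0.614 percentage points with the stronger 50%, and that between right and left from 4.97 to -1.75. In that stronger set replicate 2 held 170 of the 172 members, and 112 of the 114 on the right side, which left little room for a difference. The difference in replicate 1 shares turned from 1.73 to -0.633 points with chromosome IV included. None of these was called before or after. The share among the 100 strongest gained a call with chromosome I left out (2.89 points). It missed a call under all other alternatives, including 3.00 points in the replicate 2 list and 16.6 in the replicate 1 list. The replicate 1 list holds only 301 peaks in all, against 2811 in the combined list. Its 100 strongest are thus a much larger part of it, and its 16.6 points are not comparable with the other values. Median width was 359 bp in the stronger 50% and 305 to 383 bp over the single lists. Median strength was 3.15 to 7.00 and median spacing 25675 to 159910 bp over those lists, where the replicate 1 list is the sparser. The 50% overlap rule changed no count. Recovery in a replicate uses that replicate's own list, so leaving out a replicate gives it no value. Unknown read depth limits what can be said of members missing from replicate 1.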

Other observations

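On chromosome II 3 wide combined peaks were split in a replicate list, and 1 replicate peak was split in the combined list, both patterns found after the values had been seen. The peak at 13520974 to 13522571 corresponded to peaks of 592 and 790 bp in replicate 2, with strengths of 35.1 and 27.9, and of 577 and 445 bp in replicate 1, with 10.7 and 10.2. The peak at 13289874 to 13291278 had 13.5 in the combined list, against peaks of 3.14 and 2.27 in replicate 2 and a single peak of 2.62 in replicate 1. The peak at 2986832 to 2988210 had 15.4, against 7.52 and 2.25 in replicate 2 and a single peak of 3.42 in replicate 1. All 3 were more than 1 kb wide. The first of them was 8th on the chromosome in the combined list and 16th in each replicate list. In the opposite case, the replicate 2 peak at 5660976 to 5661993, 1018 bp wide with a strength of 11.3, overlapped 2 combined peaks. These were at 5660935 to 5661448 and 5661654 to 5661997, with strengths of 6.50 and 5.93, so here the joined peak of the replicate list had the higher value. It was the only replicate peak on the chromosome, in either list, that overlapped more than 1 combined peak.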
